A study of Mus musculus with 21 samples.

Results

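Genes that heart muscle cells are known to switch on or raise under mechanical and injury stress include Ankrd1, Sprr1a, Acta1 and Xirp2. These 4 were followed in hearts of mice bred to lose Lmna in cardiomyocytes, and in hearts of Lmna +/+ mice. The members are the counted intervals inside fixed windows of the mouse genome (build mm39) around each gene, on its strand, with only the most read of any overlapping intervals kept. This left 14 of 41 intervals in the windows, of 121259 kept in the whole data set, and they belong to 6 loci when intervals of 1 transcript are summed. Ankrd1 had 5 intervals, Acta1 had 1, Xirp2 had 7 and Sprr1a had 1.

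The data come from SLAM-IT-seq, in which a cell that makes uracil phosphoribosyltransferase (Uprt) builds the modified base 4-thiouracil into its new RNA, and alkylation then makes those bases read as C in place of T. Sequencing was 3′-end RNA counting, so each gene is seen mainly at its last exon. All 21 mice carried Myh6MCM Tg/0, a tamoxifen-inducible Cre recombinase under the cardiomyocyte promoter Myh6, and all received tamoxifen for 4 days at 6 to 8 weeks of age and 4-thiouracil 2 weeks later. RNA of the left ventricular free wall was taken 6 hours after that, as 1 library per mouse. The groups were Lmna +/+ with Uprt Tg/0 (8 mice, 4 male), Lmna F/F with Uprt Tg/0 (6 mice, 2 male), Lmna F/F without Uprt (4 mice, 2 male) and Lmna +/+ without Uprt (3 mice, all male). F is the floxed allele, so Lmna is lost only where the recombinase acts and other heart cells keep it. A mouse without Uprt shows the T>C reads that arise without the transgene.

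Libraries held 25975911 to 51007428 reads on the loci, of which 3.08% to 5.93% carried T>C and 23.7% to 33.5% were mitochondrial. Reads of Lmna itself and of cell type markers were not analysed here, since the transcript identifiers were not paired with names. In ventricle RNA, fewer cells of a type and less RNA per cell cannot be told apart. Values are CPM, the reads of a locus relative to all reads of its library, scaled with TMM factors, and each difference between groups was tested with edgeR over all loci. A locus is said to have risen or fallen where its Benjamini-Hochberg adjusted p was under 0.05.

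Ankrd1 encodes an ankyrin repeat protein that binds titin in the I-band of the sarcomere and also enters the nucleus, and it is a known target of YAP and TEAD. Sprr1a encodes a small proline-rich protein first known from the cell envelope of skin, which stressed cardiomyocytes and injured neurons also make. Acta1 is the actin isoform of adult skeletal muscle, part of the fetal heart programme that stress can bring back. Xirp2 encodes an actin-binding protein with Xin repeats, found at intercalated discs and Z-discs.

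The stretches ahead of all 4 gene starts are shown as a description, as RefSeq annotates them on GRCm38.p6. Each is the 250 bases up to the start, 5′ to 3′ on the gene's strand. Capitals mark 4 motifs searched on both strands: CATTCC (the core bound by TEAD factors), TGANTCA (bound by AP-1), TATAAA, and the CArG box (bound by SRF). Positions are chr19:36119845-36120094 (minus strand) for Ankrd1, chr3:92485882-92486131 (minus) for Sprr1a, chr8:123894776-123895025 (minus) for Acta1 and chr2:67445752-67446001 (plus) for Xirp2.
Ankrd1: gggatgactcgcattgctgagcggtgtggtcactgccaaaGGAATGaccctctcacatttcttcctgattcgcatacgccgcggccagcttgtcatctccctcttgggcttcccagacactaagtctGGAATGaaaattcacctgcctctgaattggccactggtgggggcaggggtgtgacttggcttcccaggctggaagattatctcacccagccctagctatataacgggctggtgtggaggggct
Sprr1a: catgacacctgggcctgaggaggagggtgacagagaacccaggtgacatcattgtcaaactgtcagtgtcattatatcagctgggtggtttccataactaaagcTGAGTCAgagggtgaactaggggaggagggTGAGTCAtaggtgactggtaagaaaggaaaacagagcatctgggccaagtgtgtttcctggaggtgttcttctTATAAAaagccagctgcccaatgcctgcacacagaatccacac
Acta1: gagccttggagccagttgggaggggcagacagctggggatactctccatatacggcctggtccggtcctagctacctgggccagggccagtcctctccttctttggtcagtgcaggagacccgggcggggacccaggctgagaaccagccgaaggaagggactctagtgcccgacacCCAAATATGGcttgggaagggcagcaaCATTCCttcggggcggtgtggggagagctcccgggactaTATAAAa
Xirp2: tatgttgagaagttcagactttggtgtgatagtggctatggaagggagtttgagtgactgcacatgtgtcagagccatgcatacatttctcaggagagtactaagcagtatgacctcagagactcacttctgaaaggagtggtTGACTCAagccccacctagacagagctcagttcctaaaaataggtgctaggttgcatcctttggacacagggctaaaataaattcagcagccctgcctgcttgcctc

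CATTCC lay on the opposite strand of the Ankrd1 stretch, starting 210 and 123 bases before the start, and once in that of Acta1, at 46 bases. TGANTCA matched in the Sprr1a stretch at 146 and 116 bases and in the Xirp2 stretch at 107 bases, its complement reading the same. The CArG box was found in Acta1, at 73 bases. TATAAA was found in Sprr1a at 43 bases and in Acta1 at 7 bases. Over 32851 RefSeq promoter stretches of this length, CATTCC is in 12.6%, TGANTCA in 6.75%, TATAAA in 12.4% and the CArG box in 1.47%. None of the motifs was found in both Ankrd1 and Sprr1a. No motif overlapped another in these 4 stretches, and a match is a description of the letters, not of a bound site.

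With Uprt, the Lmna F/F hearts held more Ankrd1 and Sprr1a RNA than the Lmna +/+ hearts, while Acta1 and Xirp2 did not pass the test. All 6 loci passed the count filter, and 3 rose, 2 of Ankrd1 and that of Sprr1a. The background was 2.78% of 25254 loci that rose in this comparison. Sprr1a, with 8 reads over the Lmna +/+ Uprt hearts, passed the filter through the Lmna F/F hearts, so a call could only be a rise. The count of risen loci is thus a description and not a test against the background. The median log2 difference was 0.57 over the 6 loci and 0.00 over all loci, and the genes had been picked with results of these data in view.

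Most Ankrd1 reads, 669969 over all mice, lay in the interval chr19:36089361-36090217 at the 3′ end of the gene. The Lmna +/+ Uprt hearts ran from 203 CPM through a median of 442 to 568, with a mean of 389 ± 138 (SD, n = 8). The Lmna F/F Uprt hearts ran from 415 through a median of 829 to 1276, with a mean of 840 ± 390 (SD, n = 6). The ranges overlapped: 4 of the 6 F/F hearts stood above every +/+ heart, and F/F replicates 3 and 4 did not. The difference was 1.14 ± 0.28 on the log2 scale (SE), with edgeR adjusted p = 0.0183, a fold of 2.20. It was 0.99 without Lmna F/F Uprt replicate 2 and 0.97 without its replicate 5, and passed the threshold in neither case, nor in females alone (1.07).

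Reads of Ankrd1 further upstream moved with them. The 3 intervals between chr19:36092377 and chr19:36092916 belong to 1 transcript and held 0.542% of the gene's reads, 3654 in all, at 2.43 ± 0.886 CPM in Lmna +/+ Uprt and 5.58 ± 2.74 CPM in Lmna F/F Uprt (SD, n = 8 and 6). This locus rose by 1.31 ± 0.28 (SE, edgeR adjusted p = 0.00680), and did not pass in females alone (1.35, edgeR adjusted p = 0.0677).

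Sprr1a, read in the interval chr3:92391259-92391564, was close to absent from Lmna +/+ hearts. Over 8 Lmna +/+ Uprt hearts there were 8 reads, with 2 hearts at 0 and the highest at 0.0582 CPM. The 6 Lmna F/F Uprt hearts had 18 to 100 reads each, or 0.392 to 2.25 CPM with a median of 1.48, and a mean of 1.28 ± 0.731 (SD, n = 6). Every F/F heart stood above every +/+ heart, though the level stayed low. The fitted difference was 5.28 ± 0.75 on the log2 scale (SE), with edgeR adjusted p = 9.74e-05, and leaving out any 1 mouse kept it past the threshold. Its size rests on few reads: a fold over 8 reads is not precise.

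Acta1, read at chr8:124618508-124618747, spread widely inside each group. Lmna +/+ Uprt hearts ran from 98.8 through 289 to 642 CPM and Lmna F/F Uprt hearts from 66.1 through 210 to 532, so the ranges overlapped almost fully. The difference was -0.17 ± 0.35 (SE, edgeR adjusted p = 0.868), with a 95% interval of -0.85 to 0.51, and its sign turned when libraries were scaled by size alone (0.00).

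Xirp2 was the steadiest of the 4 within groups. At its 3′ interval, chr2:67355116-67356959, Lmna +/+ Uprt hearts ran from 364 through 460 to 544 CPM and Lmna F/F Uprt hearts from 407 through 432 to 536. The difference was -0.02 ± 0.12 (SE, edgeR adjusted p = 0.961) with a 95% interval of -0.25 to 0.21. The 6 intervals upstream, with 15.5% of the gene's reads, differed by -0.00 ± 0.14 (edgeR adjusted p = 0.996).

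**Figure D1:**
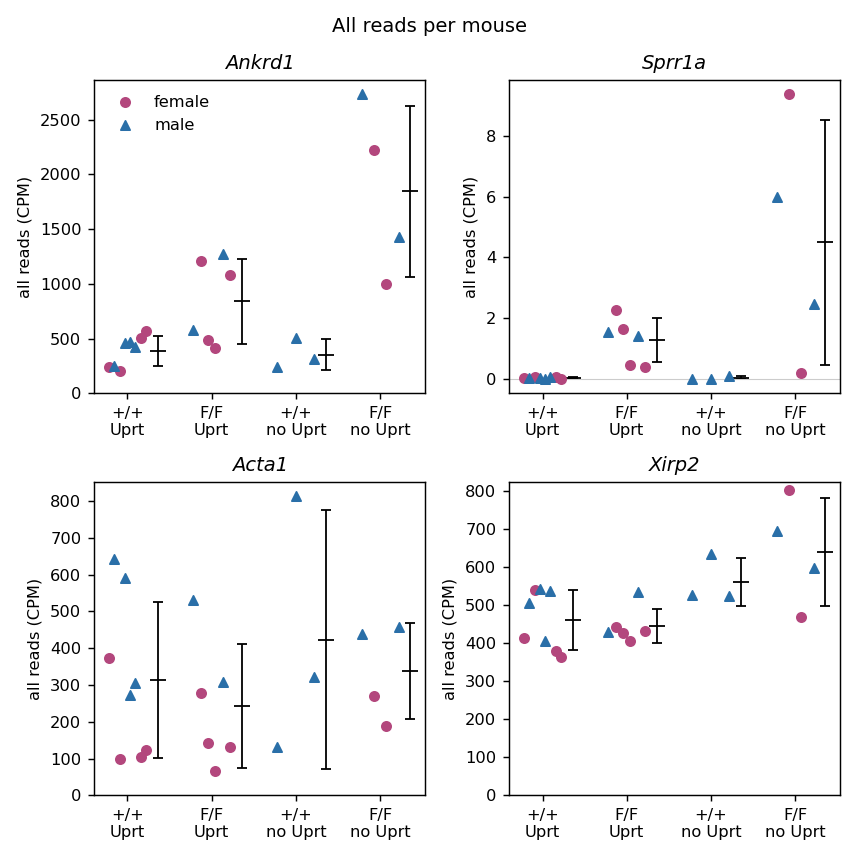
Reads of the main locus of each gene in CPM (vertical axis, linear) for each mouse by group (horizontal axis), circles for females and triangles for males, with the group mean and SD at the right of each group as a bar. Sprr1a is above 0.1 CPM in the Lmna F/F groups alone, Ankrd1 is highest in Lmna F/F without Uprt, and Acta1 spreads from 66.1 to 815 CPM.

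Without Uprt the same 2 genes rose, in fewer mice. Ankrd1 stood at 237, 509 and 318 CPM in the 3 Lmna +/+ hearts and at 2736, 2219, 999 and 1427 CPM in the 4 Lmna F/F hearts, with no overlap. The rise was 2.46 ± 0.44 on the log2 scale (SE), with edgeR adjusted p = 0.00117, a fold of 5.52. Its upstream locus rose by 2.59 ± 0.44 (edgeR adjusted p = 0.000865), and did not pass in the libraries of these groups alone (2.51, edgeR adjusted p = 0.0887). With Sprr1a, 3 of 6 loci rose, against a background of 4.39% of 25254 loci. Sprr1a again passed the count filter through the Lmna F/F hearts, so this count too is a description. The median log2 difference was 1.40 over the 6 loci and 0.02 over all loci.

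Sprr1a had 0, 0 and 4 reads in the Lmna +/+ hearts without Uprt and 255, 374, 7 and 119 reads in the Lmna F/F hearts, or 5.99, 9.39, 0.171 and 2.45 CPM. F/F replicate 3 was far below its group and still above the highest +/+ heart, at 0.0851 CPM. The fitted rise was 7.02 ± 1.14 (SE, edgeR adjusted p = 0.000632), and it rests on the 4 reads of 1 Lmna +/+ heart. Over single mice left out it ran from 6.41 to 10.45, all past the threshold; the highest came without that heart, when both remaining Lmna +/+ hearts had 0 reads and the fitted value is no bound.

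Whether these rises passed depended on which libraries were in the fit. When the fit held these 7 libraries alone, neither passed the threshold (Ankrd1 2.55, edgeR adjusted p = 0.0646, and Sprr1a 6.91, edgeR adjusted p = 0.0962). The SE was then 0.41 for Ankrd1 and 1.50 for Sprr1a, and 23 of 24071 loci passed in either direction, against 1781 of 25254 with all mice. F/F replicates 1 and 2, the highest in both genes, were left out together as an alternative chosen after seeing the data: Ankrd1 then differed by 1.86 (edgeR adjusted p = 0.0551), the Ankrd1 upstream locus by 1.73 (edgeR adjusted p = 0.0546), and Sprr1a rose by 5.33 (edgeR adjusted p = 0.0178).

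Acta1 stood at 132, 815 and 323 CPM in Lmna +/+ hearts without Uprt and at 439, 271, 188 and 457 CPM in Lmna F/F hearts, a difference of 0.26 ± 0.51 (SE, edgeR adjusted p = 0.854). That sign rests on the sex term, since the 3 Lmna +/+ mice were male; without the term it was -0.32. Xirp2 stood at 528, 636 and 525 CPM against 695, 803, 469 and 598 CPM, a difference of 0.27 ± 0.17 (SE, edgeR adjusted p = 0.397), and its upstream intervals differed by 0.34 ± 0.20 (edgeR adjusted p = 0.368).

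Ordered by group mean, Ankrd1 went from Lmna +/+ without Uprt (355 ± 140 CPM, SD) through Lmna +/+ Uprt (389 ± 138) and Lmna F/F Uprt (840 ± 390) to Lmna F/F without Uprt (1845 ± 780). The lowest neighbours differed by less than their spread (log2 0.23 ± 0.37, edgeR adjusted p = 0.960). The highest neighbours differed by -1.10 ± 0.33, Uprt against none (edgeR adjusted p = 0.225). For Sprr1a the means of the Lmna +/+ groups were 0.0298 and 0.0284 CPM, then came Lmna F/F Uprt at 1.28 and Lmna F/F without Uprt at 4.50 ± 4.04, and the last pair differed by -1.81 ± 0.59 (edgeR adjusted p = 0.249). Xirp2 was lower with Uprt than without in Lmna F/F by 0.50 ± 0.14 on the log2 scale, which did not pass the test (edgeR adjusted p = 0.206). Means of Xirp2 went from 446 ± 45.4 CPM (Lmna F/F Uprt) through 462 ± 78.2 (Lmna +/+ Uprt) and 563 ± 63.4 (Lmna +/+ without Uprt) to 641 ± 142 (Lmna F/F without Uprt), and those of Acta1 from 243 ± 169 through 314 ± 212 and 339 ± 131 to 423 ± 352 CPM, in the order Lmna F/F Uprt, Lmna +/+ Uprt, Lmna F/F and Lmna +/+ without Uprt. With all mice in the fit, no locus of the 4 genes passed in either of these comparisons, in which 0.0277% of loci differed in Lmna F/F and 0% in Lmna +/+ (edgeR; 1861 of 25254 loci had an unadjusted p below 0.05, and DESeq2 gave 39). Without Lmna F/F no Uprt replicate 3, Sprr1a (-2.25, edgeR adjusted p = 0.0427) and Xirp2 (-0.62, edgeR adjusted p = 0.0462) did pass in Lmna F/F; over single mice left out the values ran from -2.25 to -0.59 for Sprr1a and from -0.62 to -0.30 for Xirp2.

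Whether the effect of Lmna differed with Uprt was tested as an interaction. For Ankrd1 it was -1.33 ± 0.49 (SE, edgeR unadjusted p = 0.0120, adjusted p = 0.571), for Sprr1a -1.74 ± 1.65 and for Xirp2 -0.29 ± 0.20, and none passed. By edgeR 0% of 25254 loci passed, 1972 having an unadjusted p below 0.05, while 4 passed by DESeq2. The larger rise of Ankrd1 without Uprt is therefore not shown to differ from the one with it.

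**Figure D2:**
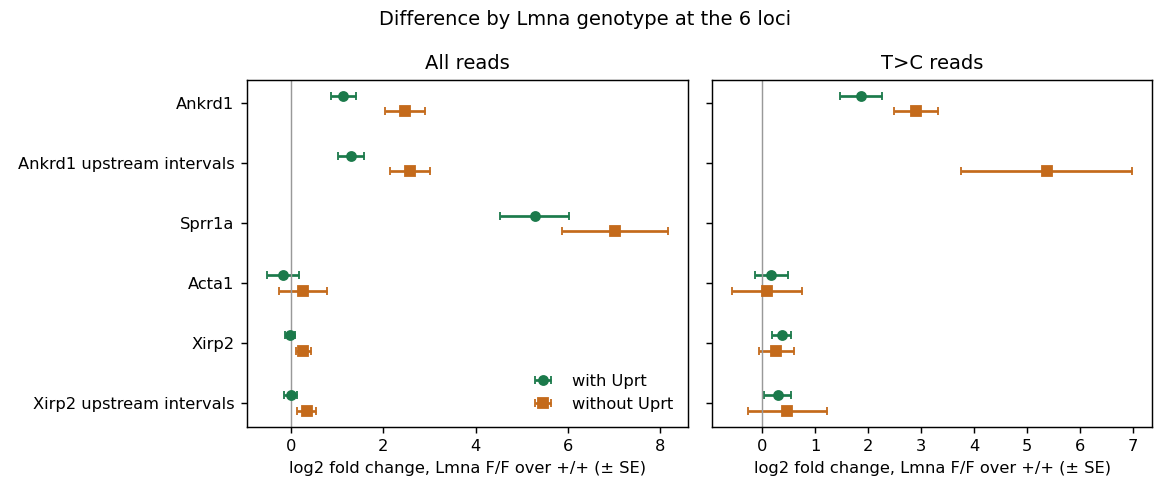
Log2 fold change of Lmna F/F over +/+ (horizontal axis, bars are SE) at each of the 6 loci, for all reads on the left and T>C reads on the right, with Uprt as circles and without as squares. Points of Ankrd1 and Sprr1a lie right of 0 in each test shown, and those of Acta1 and Xirp2 lie within 0.5 of 0.

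Split by interval, 13 of the 14 intervals passed the count filter; the remaining one, at Ankrd1, had 4 reads. All 4 tested intervals of Ankrd1 differed in the same direction, by 1.14 to 1.37 with Uprt and by 1.43 to 3.06 without. With Uprt the main interval (1.14, edgeR adjusted p = 0.0157) and the one with 2161 reads (1.37, edgeR adjusted p = 0.00505) rose, and those with 1131 and 362 reads did not pass. No Xirp2 interval passed; the values ran from -0.70 to 0.55 with Uprt and from 0.13 to 0.82 without. Upstream intervals took 16.2% ± 0.894 of Xirp2 reads in Lmna +/+ Uprt and 16.4% ± 1.50 in Lmna F/F Uprt (SD, n = 8 and 6).

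**Figure D3:**
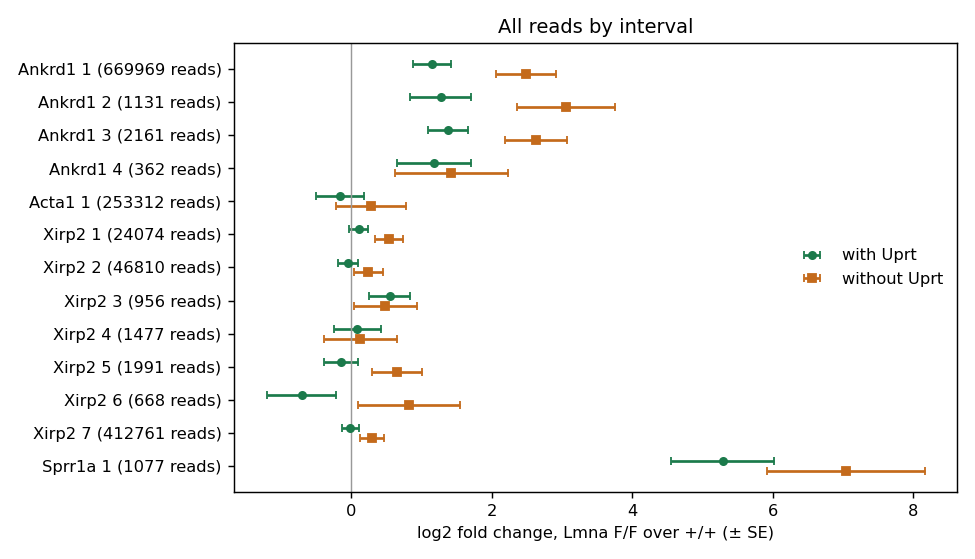
Log2 fold change of Lmna F/F over +/+ in all reads (horizontal axis, bars are SE) for each of the 13 tested intervals, numbered along the chromosome within a gene, with the reads summed over 21 mice beside each name. The Ankrd1 intervals lie together between 1.14 and 3.06, and those of Xirp2 between -0.70 and 0.82, on both sides of 0 with Uprt and above 0 without.

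New RNA was read as the share of reads with T>C. Ankrd1 carried label in hearts with Uprt: Lmna +/+ Uprt hearts ran from 1.80% through to 11.5% with a mean of 5.16% ± 3.53 (SD, n = 8), and Lmna F/F Uprt hearts from 4.39% to 11.3% with a mean of 6.91% ± 2.92 (SD, n = 6). Without Uprt the share was 1.31%, 0.940% and 1.53% in Lmna +/+ hearts and 1.24%, 1.96%, 1.55% and 1.71% in Lmna F/F hearts. The share of Xirp2 averaged 2.95% ± 1.05 and 3.72% ± 0.818 with Uprt, against 0.857% ± 0.114 and 1.04% ± 0.229 without, in Lmna +/+ and F/F respectively (SD). Acta1 gained least, with 1.46% ± 0.578 and 1.84% ± 0.802 with Uprt, against 0.910% ± 0.241 and 1.02% ± 0.130 without. The share in hearts without Uprt is the background of the assay at each gene.

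With Uprt against none, the log2 odds of a T>C read rose by 1.71 ± 0.28 at Ankrd1 (SE, edgeR adjusted p = 2.07e-05), by 1.61 ± 0.17 at Xirp2 (edgeR adjusted p = 3.31e-08) and by 2.14 ± 0.27 at the Xirp2 upstream intervals (edgeR adjusted p = 5.35e-07). Acta1 rose by 0.56 ± 0.23 (edgeR adjusted p = 0.0485), under the median of 1.19 over 18924 loci, and lost the call in most alternatives: it was 0.20 in Lmna +/+ mice alone and 0.76 in Lmna F/F mice alone. The Ankrd1 upstream locus differed by 0.90 ± 0.86 (edgeR adjusted p = 0.423). So 4 of the 5 loci with a value rose, against a background of 40.5% of loci. Sprr1a gave no share test: its 12 reads in Lmna +/+ hearts held 0 T>C reads, and in Lmna F/F hearts there were 5 T>C reads of 310 with Uprt and 15 of 755 without.

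The conversion rate, which counts C over all read positions at a reference T, was also higher with Uprt at the 3 main loci with a share. It was not higher at the Ankrd1 upstream intervals. These permutation tests pooled both Lmna genotypes and had no sex term, though sex was unevenly spread over the groups. At Xirp2 it was 0.153% ± 0.0493 with Uprt and 0.0413% ± 0.00892 without (SD, n = 14 and 7; two-sided exact permutation p = 3.44e-05, adjusted over 10 tests 0.000172), and 13 of 14 hearts with Uprt stood above each heart without it. Ankrd1 had 0.280% ± 0.164 against 0.0613% ± 0.0140 (exact permutation p = 0.00292, adjusted 0.00972), also 13 of 14. Acta1 had 0.0554% ± 0.0300 against 0.0236% ± 0.00633 (exact permutation p = 0.0118, adjusted 0.0236), with 10 of 14 above. The Ankrd1 upstream intervals had 0.0849% ± 0.142 with Uprt and 0.101% ± 0.131 without, a difference of -0.016 points that did not pass (exact permutation p = 0.813, adjusted 0.813), while their share of T>C reads differed by 1.05 points the other way.

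Between the Lmna genotypes with Uprt, Ankrd1 had more T>C reads, not a shown difference in their share. Its T>C reads averaged 17.9 ± 9.76 CPM (over all reads) in Lmna +/+ Uprt and 62.3 ± 48.8 in Lmna F/F Uprt (SD, n = 8 and 6), and rose by 1.86 ± 0.40 on the log2 scale (SE), with edgeR adjusted p = 0.0321. This was 1 of 4 loci tested, against a background of 0.403% of 11410 loci. Lmna F/F Uprt replicate 5 weighs on it: without that mouse the value was 1.18 and did not pass, and it was 1.15 in females alone. Without any one of Lmna F/F Uprt replicate 2 and Lmna +/+ Uprt replicates 2, 3, 4, 6 and 7 it also missed the threshold, at values from 1.65 to 1.91. Acta1 (0.17 ± 0.32) and Xirp2 (0.36 ± 0.18, edgeR adjusted p = 0.739) did not pass.

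The share itself differed by 0.46 ± 0.33 in log2 odds at Ankrd1, with a 95% interval of -0.19 to 1.12, by 0.30 ± 0.20 at Xirp2 and by 0.27 ± 0.27 at Acta1, none past the threshold (edgeR adjusted p = 1.00 for each), where 0.0169% of 17717 loci passed. At the Ankrd1 upstream intervals the conversion rate was 0.185% ± 0.174 in Lmna F/F Uprt and 0.00964% ± 0.0273 in Lmna +/+ Uprt (SD, n = 6 and 8; two-sided exact permutation p = 0.00833, adjusted 0.0208). That rate counts 34 conversions against 2, and the share of T>C reads in the same locus did not pass (exact permutation p = 0.381, adjusted 0.424). In Lmna +/+ Uprt, 15 of the 16 T>C reads lay in its 44-base interval, which had 0 conversions on its own T bases. In Lmna F/F Uprt that interval held 14 of 50. Without Uprt the rate was 0.176% ± 0.128 in Lmna F/F and 0% in Lmna +/+ (SD, n = 4 and 3), from 45 conversions against 0. A difference in this direction was thus also seen without Uprt, and whether it reflects new RNA was not tested. Without Uprt, Ankrd1 had 3.10 to 4.87 CPM of T>C reads in Lmna +/+ hearts and 15.5 to 43.5 in Lmna F/F hearts, a difference of 2.90 ± 0.42 (SE, edgeR adjusted p = 0.0835; DESeq2 adjusted p = 1.34e-06), in a comparison where 0.0324% of 9252 loci passed.

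**Figure D4:**
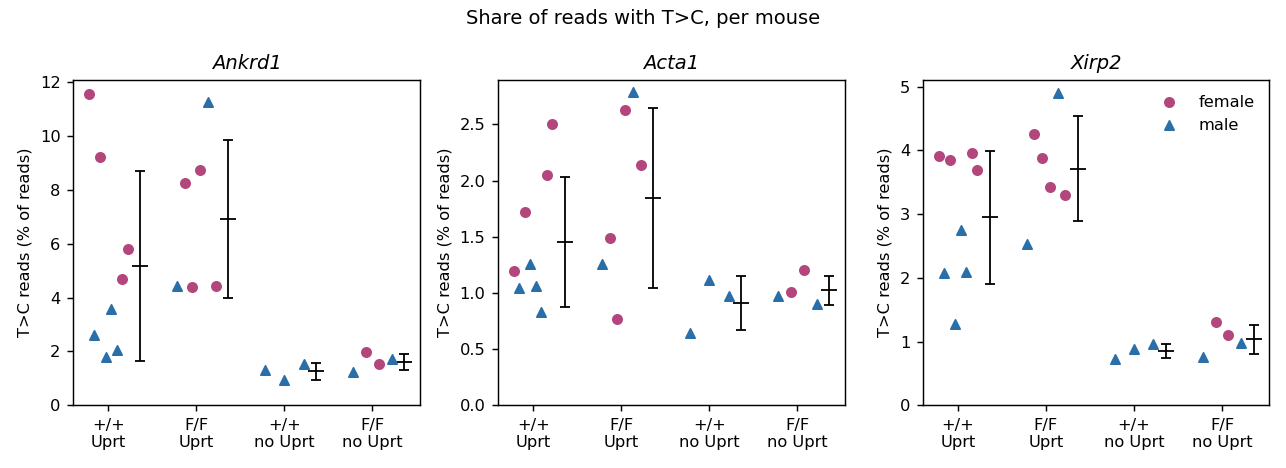
Share of reads with T>C in percent (vertical axis) for each mouse by group (horizontal axis) at the main loci of Ankrd1, Acta1 and Xirp2, circles for females and triangles for males, with the group mean and SD as a bar. At Ankrd1 and Xirp2, 13 of the 14 hearts with Uprt stand above every heart without it, and in Lmna +/+ Uprt the 4 males lie below the 4 females at both genes.

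Sex went with some of this spread, a comparison made after the values were seen. Acta1 was higher in males: 274 to 642 CPM in the 4 male Lmna +/+ Uprt hearts against 98.8 to 373 in the 4 females, 308 and 532 against 66.1 to 278 in Lmna F/F Uprt, and 439 and 457 against 188 and 271 in Lmna F/F without Uprt. Only Lmna +/+ Uprt replicate 1, a female at 373 CPM, stood inside the male range of its group. The 3 Lmna +/+ hearts without Uprt, all male, ran from 132 to 815 CPM. In the fit of 21 libraries the difference was 1.30 ± 0.30 on the log2 scale, a fold of 2.46, and did not pass (edgeR adjusted p = 0.0738; 0.19% of loci passed). It passed by DESeq2 (1.30, adjusted p = 0.0484) and in the 14 libraries with Uprt (1.40, edgeR adjusted p = 0.0303). Ankrd1 (0.19 ± 0.24) and Xirp2 (0.17 ± 0.10) did not pass.

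The T>C share was lower in males of the Lmna +/+ Uprt group. Ankrd1 had 1.80% to 3.59% in males and 4.69% to 11.5% in females, and Xirp2 1.27% to 2.76% and 3.69% to 3.96%. For each the two-sided exact permutation p was 0.0286, the smallest that 4 against 4 mice can give, and 0.0571 after adjustment over 6 tests. Over all loci of a library the share was 4.79% ± 0.285 in males and 5.06% ± 0.586 in females (SD, n = 4 each; exact permutation p = 0.514). The order did not hold in Lmna F/F Uprt, where the males had 4.44% and 11.3% at Ankrd1 and the females 4.39% to 8.72%. Over all 14 hearts with Uprt, the male to female difference in log2 odds was -0.91 ± 0.33 at Ankrd1 and -0.62 ± 0.20 at Xirp2 (edgeR adjusted p = 0.893 for both), and by edgeR 0% of 17717 loci passed, 963 having an unadjusted p below 0.05.

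For each main locus the 1 locus outside the windows with the most alike pattern was sought by Spearman's rho of log2(CPM + 0.5) over 21 libraries, among 15773 loci averaging at least 1 CPM. That of Ankrd1 was at chr14:20505328-20506546 (rho 0.914), of Sprr1a at chr13:117409599-117410951 (0.945), of Acta1 at chr3:146599757-146599955 (0.900) and of Xirp2 at chr8:26434481-26435161 (0.882). Being the best of many, these are descriptions without a test. The locus like Sprr1a averaged 0.766 and 0.496 CPM in the Lmna +/+ groups with and without Uprt, and 2.81 and 4.25 CPM in the Lmna F/F groups.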

How the data were processed

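The authors deposited 1 table of SLAM-IT-seq counts per interval, library and mouse: reads, reads with T>C, conversions and read bases on reference T, all whole-number counts not normalized, per the file headers. Per the submitters' processing notes the genome build was mm39. Which aligner was used, and how many conversions make a T>C read, is not given in the sources used here. Of 208307 intervals, 121259 were kept after overlaps were reduced to the most read, and 61903 loci resulted from summing kept intervals by transcript. The genotype column matched the labels in 21 of 21 libraries. Multimapped reads were at most 0.254% of any interval of the 4 genes.

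All-read counts of the 21 libraries were fitted with edgeR 4.0.16 (R 4.3.3; filterByExpr with a minimum count of 10, TMM, quasi-likelihood test, group and sex), T>C reads likewise within 14 libraries with and 7 without Uprt, and the T>C share as converted against unconverted reads with a library effect, for loci of at least 20 converted reads. P-values were adjusted over all loci. The SE is the log2 fold change over the square root of F. Confidence intervals at 95% use the normal distribution with that SE, so they can be narrower than the edgeR test implies. DESeq2 1.42.0 was the alternative test. Conversion rates were compared with two-sided exact permutation tests, which had no sex term. The fits were tested on simulated data in which 200 loci changed by 1 on the log2 scale. In all reads 77% of these were recovered with Uprt and 43% without. For T>C reads with Uprt it was 22.8%, and for the share, Uprt against none, 13.5%. Most of these loci were thus missed in the T>C fits. The share figure was found with 200 of 18293 loci changed, while 40.5% of 18924 rose in the data, so it need not hold there. Recovery was not tested for the share between Lmna genotypes or for T>C reads without Uprt. A value in T>C reads or share that did not pass does not show an absence of change. Replicate numbers only name mice.

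The members were the intervals in the 4 windows, and further named loci were those most alike by Spearman's rho; members and lists were chosen with earlier results of these data known. A list of other cardiomyocyte stress genes and the cell type markers (cardiomyocyte, fibroblast, endothelial, macrophage, smooth and skeletal muscle) were not run, since they need a table that pairs the transcript identifiers with names. Promoters came from RefSeq, GRCm38.p6, with 4 of 4 genes matched by symbol. Depth per library limits low loci such as Sprr1a. The alternatives were other scalings and filters, no sex term, other sets of libraries, each library left out, and other definitions of a locus.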

Additional observations from a re-analysis of the deposited data

Results flagged for a closer look

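A mouse apart from the others was sought in 32 sets of values, each the CPM or T>C share of 1 locus in a group of 4 to 8 mice. The sets share mice, and 1 value was far from the rest. Chance gives about 1 in 20, so 1 flag in 32 is no more than chance gives. Xirp2 in Lmna F/F Uprt replicate 5 stood at 536 CPM, while the other 5 mice held 407 to 444 CPM. Its gap to the next mouse was 0.717 of the range of the group, above Dixon's critical value for 6 mice. The same mouse had the highest Ankrd1 level of its group, 1276 CPM, and the highest T>C share at Ankrd1, Acta1 and Xirp2 (11.3%, 2.79% and 4.90%). Its share over all loci of a library was also the highest of the group, 5.46% against 4.78% to 5.33%. The cause of the high Xirp2 value was not tested.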

How the results depend on the processing

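The rises of Sprr1a kept their direction in every alternative run, and that with Uprt its side of the threshold too; the rise without Uprt missed it in the libraries of its groups alone (6.91) and ran from 6.41 to 10.45 over single mice left out. Ankrd1 kept its direction in all alternatives. With Uprt it ranged from 0.97 to 1.29 over single mice left out, and was not called in females alone (1.07); without Uprt it was not called in the libraries of its groups alone (2.55) or with replicates 1 and 2 of Lmna F/F without Uprt both left out (1.86). Its T>C reads with Uprt ranged from 1.18 to 2.09 over single mice left out and were 1.15 in females alone, not called. With no low-count filter, the interaction at Ankrd1 (-1.33, adjusted p = 1.61e-08) and the Uprt difference in Lmna F/F at Ankrd1, Sprr1a and Xirp2 (-1.10, -1.81 and -0.50) were called; the cause was not tested.

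All signs that turned belonged to values that had not passed. For Acta1 with Uprt these were 0.0050 under library size alone, a range of -0.40 to 0.17 over single mice, and in T>C reads -0.066 in females alone and -0.025 to 0.35 over single mice. For Acta1 without Uprt they were -0.32 with no sex term, -0.16 to 1.15 over single mice, and in T>C reads -0.24 with no sex term and -0.36 to 1.21 over single mice. For Acta1 in Lmna +/+, Uprt against none, they were -0.074 under library size alone, -0.43 with no sex term and -0.36 to 0.96 over single mice. Xirp2 with Uprt was 0.15 under library size alone, 0.011 in females alone and -0.064 to 0.047 over single mice, and its upstream intervals were 0.17, 0.0040 without mitochondrial loci, 0.0094 in the 2 groups alone and -0.049 to 0.060. The Ankrd1 upstream share, 0.90 with Uprt against none, was -0.10 in Lmna F/F mice alone, and its conversion rate difference of -0.016 points was 1.05 points as a share of reads. The gain of Acta1 was not called in Lmna +/+ mice alone (0.20), in Lmna F/F mice alone (0.76), as a share of reads (0.648 points) or without 6 of the 7 mice without Uprt (range 0.46 to 0.64 over all 7).

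Counts of loci over all genes moved more. With Uprt, edgeR called 834 in either direction, DESeq2 1387, library size alone 1437, no filter 1789, the 2 groups alone 1269, females alone 375, the fit without F/F no Uprt replicates 1 and 2 1413, and single mice left out 517 to 1023. Without Uprt, it called 1781, the 2 groups alone 23, the fit without those 2 mice 123, and single mice left out 490 to 2571. The interaction called 0, DESeq2 4, no filter 385 and single mice 0 to 4. Uprt against none called 0 in Lmna +/+ (DESeq2 39, no filter 266, no sex term 2, single mice 0 to 4) and 7 in Lmna F/F (DESeq2 88, no filter 666, unsummed intervals 11, single mice 4 to 90). T>C reads called 53 with Uprt (DESeq2 102, no filter 175, females alone 19) and 3 without (DESeq2 76, no filter 252, single mice 1 to 26). The share with Uprt against none called 7695, and 3008 in Lmna +/+ mice alone. No paired analysis was possible because the replicate numbers follow the order of the samples and carry no pairing.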

Other observations

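The Ankrd1 interval chr19:36092873-36092916, the shortest of the gene at 44 bases, had T>C in 53 of 362 reads. Reads with T>C made up 15 of 76 reads in Lmna +/+ Uprt, 14 of 154 in Lmna F/F Uprt, 23 of 101 in Lmna F/F without Uprt and 1 of 31 in Lmna +/+ without Uprt. Conversions on the T bases of the interval itself numbered 0, 2, 0 and 0 in those groups, so nearly all of them lay outside its 6 T bases. These 53 reads are among the 125 T>C reads behind each T>C share given for the Ankrd1 upstream locus, but add almost nothing to its conversion rate.

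Levels of the genes were compared across mice within a group, over 9 pairs, on log2(CPM + 0.5), after the values had been seen. In Lmna F/F Uprt, Ankrd1 and Xirp2 had the same rank order in 6 of 6 mice (Spearman's rho 1.00, exact permutation p = 0.00278, adjusted 0.0250; Pearson's r 0.693, exact permutation p = 0.0375, adjusted 0.338), and without the 2 mice farthest from the median of Ankrd1 r was 0.540. In Lmna +/+ Uprt the same pair had rho -0.667 (exact permutation p = 0.0831, n = 8) and r -0.466. Ankrd1 and Sprr1a had rho 0.143 and r 0.225 in Lmna F/F Uprt (exact permutation p = 0.803 and 0.532, n = 6). No other pair passed after adjustment by either measure.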
